A study of Mus musculus with 25 samples.

Results

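The late effect of an Actn4 knock-in allele on the ribosome-bound RNA of mouse podocytes was read from the 8 arrays of 44 weeks, 4 from knock-in (KI) and 4 from control (WT) mice, out of 25 arrays in the series. The arrays were chosen by their titles, which call this age 10 months (the labels also write it as postnatal day 300), and every one of the 11968 genes tested among the 17097 named on the array was compared. The other 17 arrays, from mice of 2 and 5 weeks, entered the fit only to help estimate the spread, and their differences are given where they set a gene in context.

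Both groups were of the C57/129sv strain and carried the Col1a1-eGFPL10a transgene, in which a collagen 1α1 promoter and enhancer drive an eGFP-tagged L10a, a protein of the large ribosomal subunit. The KI mice also carried the Actn4tm1.1Plk allele, and the labels write the KI mice used for the cross as Actn4+/tm1.1Plk. Polysomal RNA was captured on the tagged ribosomes by translating ribosome affinity purification (TRAP), amplified once and hybridized to an Affymetrix mouse array that has perfect-match probes only. Nothing in the labels ties an array to an animal of its own, so p-values measure only the spread between these samples, which may be technical. Sex is given as unknown.

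Podocytes are the visceral epithelial cells of the glomerulus, whose interdigitating foot processes and slit diaphragms form the outer layer of the filtration barrier. Actn4 encodes alpha-actinin-4, a dimeric protein that crosslinks actin filaments in those foot processes and links them to adhesion complexes. Point mutations that tighten its binding to actin cause a dominant, late-onset focal segmental glomerulosclerosis in people. Actn4 was not analysed here, since no probe set carries its symbol alone in the annotation used, and the labels were therefore not checked against the altered gene.

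Sex and 1 WT array bear on the results. Y-linked genes were high on 1 of 4 WT arrays (number 15 in the titles) and on 3 of 4 KI arrays (31, 32 and 33), and low on WT 16, 17 and 18 and on KI 34, so the genotypes were unevenly matched for sex. WT 15 also had the highest mean of the tubule markers, 9.07 against 8.01 to 8.56 on the other 3 WT arrays and 8.67 to 8.94 on the KI arrays, and it stood with the KI arrays for many of the genes described here. Podocyte markers were abundant: the mean log2 value of 33 podocyte identity genes ran from 10.76 to 11.06 on the WT arrays and from 10.75 to 10.90 on the KI arrays, while the median of all probe sets lay between 4.93 and 4.99. Nphs1 (nephrin) read at least 10.47 on all 8 arrays, and Wt1, a transcription factor that defines podocytes, ran from 12.23 to 12.40 in WT and from 12.23 to 12.34 in KI. Col1a1, whose promoter drives the tag, read 6.98 in both groups (difference 0.00 ± 0.41), after 11.64 in WT at 2 weeks and 9.22 at 5 weeks.

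Of the 11968 genes, 3 passed an adjusted p of 0.05 in limma at 44 weeks, 0.0251% of those tested. The predicted gene Gm38983 and the redox enzyme Glrx rose in KI podocytes, and the immunoglobulin kappa variable gene Igkv1-135 fell. Counted with these, 422 genes higher and 340 lower had an unadjusted p under 0.05, which is 3.53% and 2.84% of the genes. The 4 KI arrays lay wholly above the 4 WT arrays for 171 genes (1.43%) and wholly below them for 157 (1.31%). More genes were over 2-fold higher (113) than lower (27), while the median difference over all genes was 0.01 on the log2 scale. Leaving out WT 15 raised the number of calls to 45, of which 34 were higher and 11 lower and which included all 3; without that array the remaining 3 WT arrays were all low in Y-linked RNA.

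**Figure D1:**
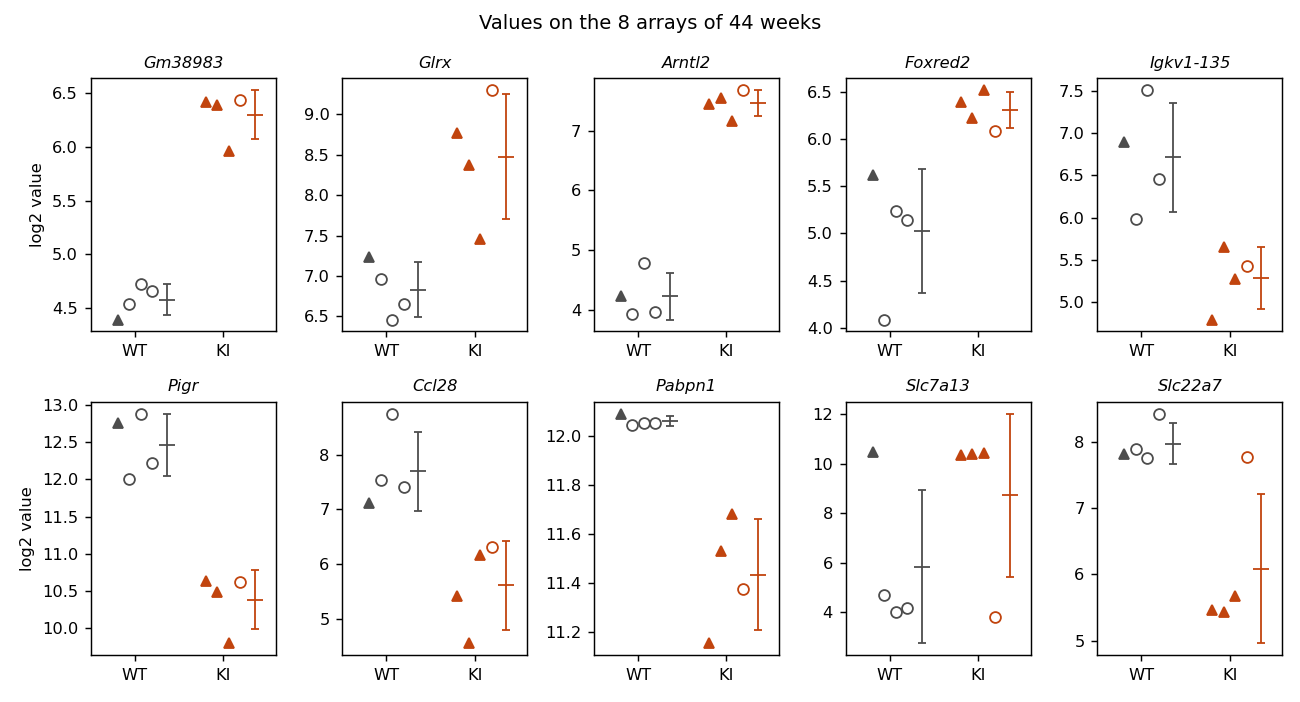
Log2 values of 10 genes on the 8 arrays of 44 weeks (WT grey, KI orange); filled triangles are the arrays high in Y-linked RNA, open circles are arrays low in it, and the bar beside each group is the mean ± SD of 4 arrays. Gm38983, Glrx and Igkv1-135 are the 3 genes that passed and do not overlap between groups; Slc7a13 is high on the 4 filled-triangle arrays, and Slc22a7 is low on KI 31 to 33 alone.

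Gm38983 read 4.39, 4.54, 4.72 and 4.66 on WT 15 to 18 and 6.42, 6.39, 5.96 and 6.44 on KI 31 to 34. All 4 KI arrays were high, and KI 33, the lowest of them, was still above every WT array. The rise was 1.72 ± 0.22 (SE) on the log2 scale, or 3.30-fold (adjusted p = 0.0012, limma), and it passed in each of the 20 alternative fits that held the gene. Gm38983 was also higher in KI at 5 weeks, by 1.51 (adjusted p = 0.00058), and read 0.78 higher at 2 weeks, where it did not pass. Its gene lies 0.797 Mb from Actn4 on chromosome 7, the chromosome that carries the modified allele.

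Glrx encodes glutaredoxin 1, which removes glutathione from oxidized protein thiols. It read 7.23, 6.97, 6.46 and 6.66 on the WT arrays and 8.76, 8.37, 7.46 and 9.30 on the KI arrays. KI 34 was the highest and KI 33 the lowest of the KI group, and there was no overlap with WT. The rise was 1.65 ± 0.28 (3.13-fold, adjusted p = 0.032, limma), and a second, dimmer probe set gave a difference of 1.71, also without overlap. At 5 weeks the difference in Glrx was 0.65 and at 2 weeks -0.12, neither past the threshold. The call was lost with a sex covariate (1.73, adjusted p = 0.066), with the 8 arrays fitted alone (adjusted p = 0.58) and without any 1 of 6 arrays (all but WT 15 and KI 33), while the difference stayed between 1.37 and 1.98 in all 21 alternatives.

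Igkv1-135 encodes the variable part of an antibody light chain. Its values were 6.89, 5.98, 7.51 and 6.46 on the WT arrays against 4.79, 5.65, 5.27 and 5.43 on the KI arrays. Every KI array was below every WT array. It fell by 1.43 ± 0.23, or 2.69-fold (adjusted p = 0.022, limma). In WT it stood at 4.29 ± 0.20 (SD, n = 4) at 2 weeks and 4.37 ± 0.30 (SD, n = 5) at 5 weeks, beside 6.71 ± 0.65 (SD, n = 4) at 44 weeks. A second probe set read -1.57 with overlapping arrays and the remaining, dim one 0.07. Its mean over the 25 arrays was 4.82, just over the limit of 4.60 for testing, and over the 21 arrays other than the 4 WT arrays of 44 weeks it was 4.46, so the gene was tested only through the group in which it is high; with no filter on dim genes it also passed (adjusted p = 0.019). The call was lost with a sex covariate (-1.38, adjusted p = 0.067) with the 8 arrays fitted alone (adjusted p = 0.61) and without WT 17, KI 31 or KI 33.

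Several other antibody and mucosal immunity genes read lower in KI at 44 weeks. In mucosal defence, plasma cells secrete dimeric IgA held by the joining chain (Jchain), the polymeric immunoglobulin receptor (Pigr) of epithelial cells carries it across the epithelium, and the chemokine Ccl28 draws IgA-secreting cells to mucosal surfaces. Pigr read 12.76, 12.00, 12.88 and 12.22 on the WT arrays, among the brightest genes there, and 10.63, 10.49, 9.80 and 10.62 on the KI arrays. No KI array came near the WT range, and WT 15, high in Y-linked RNA, was as high as the others. The difference was -2.08 ± 0.48, which is 4.23-fold lower in KI, but did not pass (adjusted p = 0.32, limma); with array weights it did (-2.03, adjusted p = 0.018). A second probe set gave -1.67, also without overlap.

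Ccl28 read 7.11, 7.53, 8.75 and 7.40 in WT and 5.41, 4.55, 6.17 and 6.31 in KI, again without overlap. Its difference was -2.09 ± 0.52 (adjusted p = 0.47), and 2 dimmer probe sets read -0.41 and -0.30 with overlapping arrays. Jchain ran from 7.74 to 9.67 in WT and from 6.31 to 8.19 in KI, a difference of -1.72 ± 0.41 (adjusted p = 0.39), and it too cleared the limit for testing only through the WT arrays of 44 weeks. KI 32 was the only KI array of Jchain inside the WT range. Slpi, a secreted inhibitor of neutrophil proteases found at mucosal surfaces, ran from 5.70 to 6.49 in WT and from 4.76 to 5.43 in KI (-0.78 ± 0.20, adjusted p = 0.48, limma). At 5 weeks Slpi had the opposite sign and passed, 0.56 higher in KI (adjusted p = 0.040, limma). Igkv9-120 read -0.40 ± 0.10 with no overlap, and its other probe set -0.16 with overlapping arrays. Xbp1, a transcription factor of plasma cells that many other cells also use, read -0.20 ± 0.22 with overlapping arrays.

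The fixed list of antibody and mucosal immunity genes had 5 members tested (Pigr, Jchain, Xbp1, Ccl19 and Cxcl13), of which 4 read lower, with a median of -0.58. The array names 14 antibody genes, of which 12 had a lower mean in KI at 44 weeks. The KI arrays lay wholly below the WT arrays for 6 of them and wholly above for none, against 1.31% and 1.43% of the genes tested. Only 2 of the 14 were bright enough over all 25 arrays to be tested, so these shares come from an unlike set of genes. The share with dim genes included was not counted. Igkv6-20, 1 of the 6, was dim in both groups (3.50 in WT, 3.29 in KI). Of the other 12 some were dim at every age, such as Igha, which read 3.06 in WT and 3.08 in KI at 44 weeks. Igkv15-103 read 6.90, 4.91, 7.72 and 6.62 in WT and 4.49, 4.16, 3.76 and 3.16 in KI. Iglv1, from the lambda light chain locus, read 8.31, 5.46, 6.68 and 6.46 in WT and 4.80, 5.38, 4.23 and 4.01 in KI. Neither overlapped between groups, and with no filter on dim genes both passed, Igkv15-103 at -2.65 ± 0.36 (adjusted p = 0.0017, limma) and Iglv1 at -2.12 ± 0.36 (adjusted p = 0.022). Ighm, the constant region of IgM, ran from 4.59 to 5.27 in WT and from 4.28 to 4.48 in KI, a difference of -0.53 ± 0.11 that did not pass without the filter (adjusted p = 0.11). Cr2, the complement receptor of B cells, was dim (4.13 to 4.46 in WT, 3.78 to 3.85 in KI) and passed only in that fit, at -0.49 ± 0.08 (adjusted p = 0.022).

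**Figure D2:**
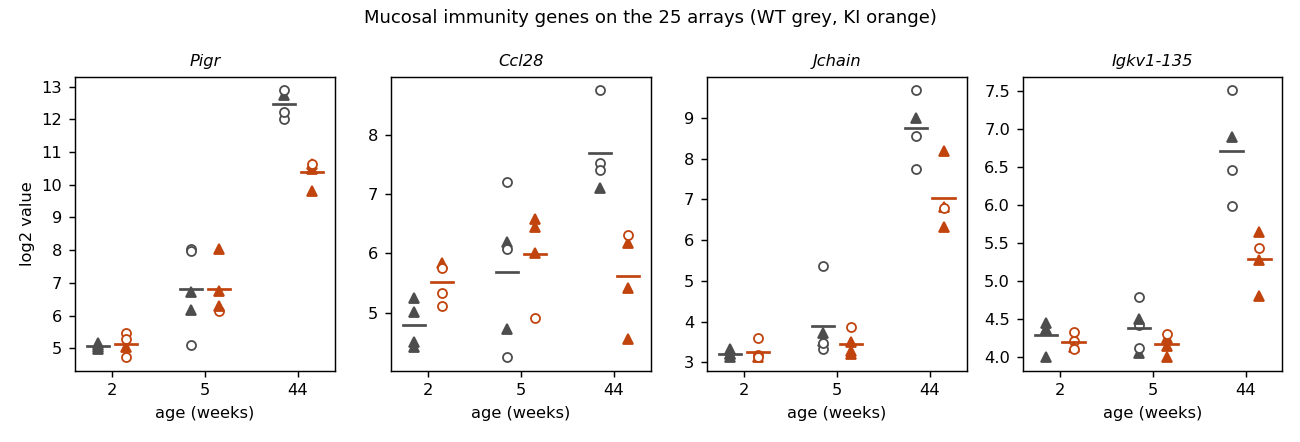
Log2 values of Pigr, Ccl28, Jchain and Igkv1-135 on all 25 arrays by age in weeks (WT grey, KI orange; triangles high and circles low in Y-linked RNA; lines are group means). Pigr, Jchain and Igkv1-135 are highest at 44 weeks in both genotypes, Ccl28 in WT alone, and the arrays of the genotypes overlap at 2 and 5 weeks for each gene.

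Pigr and Jchain differed more between ages than between genotypes. Pigr stood at 5.07 ± 0.08 (SD, n = 4) in WT at 2 weeks, 6.80 ± 1.25 (n = 5) at 5 weeks and 12.47 ± 0.42 (n = 4) at 44 weeks; KI podocytes read 5.12 ± 0.33, 6.81 ± 0.86 and 10.38 ± 0.40 at the same ages (n = 4 each). Jchain followed the same course in WT, with 3.21, 3.88 and 8.74, and reached 7.02 in KI at 44 weeks. The genotype difference of Pigr at 44 weeks minus that at 5 weeks was -2.09 ± 0.66, and that of Ccl28 -2.38 ± 0.72. Neither difference between ages passed (adjusted p = 0.11 for each, limma), nor did that of Igkv1-135 (-1.22 ± 0.32, adjusted p = 0.10). Of 21 general leukocyte markers tested, 15 read higher in KI, with a list median of 0.22, and Ptprc, the pan-leukocyte surface protein, read 0.70 ± 0.39. In such bulk RNA, fewer cells of a type and less RNA per cell cannot be told apart.

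Other genes higher in KI without overlap, but short of the threshold, had varied functions. Foxred2, an oxidoreductase of the endoplasmic reticulum, read 5.62, 4.09, 5.23 and 5.14 in WT and 6.40, 6.22, 6.52 and 6.09 in KI (1.28 ± 0.28, adjusted p = 0.25, limma); it passed without WT 15 (adjusted p = 0.029). Thrsp, a nuclear regulator of lipogenesis, ran from 5.65 to 6.30 in WT and from 6.74 to 7.54 in KI (1.14 ± 0.27). Alas1, the first enzyme of heme synthesis, ran from 7.78 to 8.23 and from 8.54 to 9.27 (0.85 ± 0.21). Both Thrsp and Alas1 had risen at 5 weeks, by 0.94 (adjusted p = 0.015) and 0.75 (adjusted p = 0.014). Csrp1, a LIM protein that binds the alpha-actinin family and actin bundles, ran from 7.95 to 8.54 in WT and from 8.81 to 9.69 in KI (0.88 ± 0.21, adjusted p = 0.39), with a second probe set at 0.79. At 5 weeks Csrp1 read -0.27. Rhot1 (Miro1), which couples mitochondria to motor proteins, read 0.53 ± 0.14, and Ift88, needed to build cilia, 0.39 ± 0.11. The kinases Hunk (1.15 ± 0.31) and Snrk (0.47 ± 0.14), Dennd2a, a Rab exchange factor (0.98 ± 0.24), the carboxylesterase Ces2g (0.83 ± 0.22) and the zinc finger gene Zfp316 (1.21 ± 0.32) were others, as were Cd93, Cxcl1 and Arntl2. These are a part of the 171 genes that lay above WT without overlap. Other probe sets overlapped between groups for Thrsp (0.40), Dennd2a (0.22), Snrk (0.21) and Zfp316 (0.22 and -0.15). The first of these for Zfp316 was about as bright as the one used (5.56 against 5.66). For Rhot1 other probe sets read 0.21 without overlap and 0.23 with it. Hunk passed without WT 15 (1.41, adjusted p = 0.047).

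Among the genes lower in KI without overlap was Pabpn1, the nuclear poly(A)-binding protein. It read 12.09, 12.05, 12.06 and 12.05 in WT and 11.15, 11.53, 11.68 and 11.37 in KI. The WT arrays were nearly equal and every KI array was lower, a difference of -0.63 ± 0.12 (adjusted p = 0.12, limma) that passed with a trended robust prior (adjusted p = 0.027) and without WT 15 (adjusted p = 0.047). A second probe set read -0.68, also without overlap, and a dimmer one -0.15 with overlapping arrays. The mRNA export adaptor Alyref read 8.05, 8.31, 8.03 and 8.13 in WT and 6.53, 8.00, 7.44 and 6.81 in KI (-0.94 ± 0.27). A dimmer probe set of Alyref read -0.24 with overlapping arrays. The splicing factor Srsf9 read -0.58 ± 0.15 and Leng8 -0.39 ± 0.11. For Alyref, Srsf9 and Pabpn1 the lowest arrays were KI 31 and KI 34. The actin control probes at the 3′ end exceeded those at the 5′ end, a sign of RNA integrity and priming. This excess was 1.85 on KI 34 against 0.99 to 1.06 on the other KI arrays and 0.78 to 1.24 in WT. For the Gapdh control probes it was 1.65 on KI 34, close to the WT range of 1.26 to 1.62, and 1.08 to 1.26 on the other KI arrays. The part of RNA integrity in these values was not tested.

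The chloride-proton exchanger Clcn4 read 9.46, 9.59, 9.61 and 9.51 in WT and 9.03, 9.06, 9.03 and 9.24 in KI, a difference of -0.45 ± 0.09 (adjusted p = 0.16). It passed without WT 15 (adjusted p = 0.040, limma). A dimmer probe set of Clcn4 read -0.17 with overlapping arrays. The somatostatin receptor Sstr3 (-0.43 ± 0.11), the receptor auxiliary protein Shisa7 (-0.41 ± 0.11), Iqcf3 (-0.38 ± 0.11), the lipid flippase Atp8b3 (-0.34 ± 0.10) and the 14-3-3 protein Sfn (-0.50 ± 0.15) were dimmer genes. Their adjusted p-values ran from 0.48 to 0.59. Dimmer probe sets of Sstr3 (0.03) and Atp8b3 (-0.08) overlapped between groups.

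Podocyte genes showed small differences. Of 33 podocyte identity genes tested, none passed and 4 had an unadjusted p under 0.05, all lower (2.84% of all genes); 28 had a lower and 5 a higher mean in KI, and the median was -0.13 beside 0.01 for all genes. The KI arrays lay below WT without overlap for 2 of the 33 (Dach1 and Clic3; 1.31% of all genes) and above for none. Dach1, a transcription factor of podocytes, read 10.58, 10.74, 10.32 and 10.81 in WT and 10.17, 10.23, 10.21 and 9.89 in KI (-0.49 ± 0.18, adjusted p = 0.69, limma). Enpep, the aminopeptidase that clears angiotensin II, ran from 11.33 to 11.66 and from 11.20 to 11.34 (-0.27 ± 0.10), Thsd7a, an antigen of membranous nephropathy, from 11.39 to 11.94 and from 11.28 to 11.50 (-0.33 ± 0.14). The transcription factor Lmx1b read -0.45 ± 0.17, but it was dim (means of 5.12 in WT and 4.67 in KI). At 5 weeks Lmx1b was higher in KI by 0.52 (adjusted p = 0.026, limma). Nphs1 ran from 10.81 to 11.49 in WT and from 10.47 to 11.31 in KI, a difference of -0.10 ± 0.22 whose sign turned when WT 18 or KI 32 was left out. Synpo, an actin-binding partner of alpha-actinin, read -0.08 ± 0.08 and Podxl, the main sialoprotein of the foot process surface, -0.05 ± 0.07. The podocyte list median was -0.15 at 5 weeks and -0.14 at 2 weeks, and -0.20 at 44 weeks without WT 15.

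The slit diaphragm and polarity list of 19 genes had a median of -0.05, with 7 higher, 12 lower, none without overlap and none that passed. Kirrel, a partner of nephrin, read -0.38 ± 0.27, Ptpro, a podocyte tyrosine phosphatase, -0.16 ± 0.11, and the scaffold Iqgap1 0.47 ± 0.31. Without WT 15 they read -0.67, -0.28 and 0.73, and with a sex covariate over the 8 arrays -0.11, -0.03 and 0.19. Among 18 genes of the glomerular basement membrane 10 read higher and 8 lower, and none passed. Of the type IV collagen chains Col4a3, Col4a4 and Col4a5 read lower and Col4a1, Col4a2 and Col4a6 higher. Col4a3 read 11.20, 11.88, 11.88 and 11.79 in WT and 11.04, 11.16, 11.42 and 11.51 in KI (-0.41 ± 0.15, adjusted p = 0.69), with WT 15 inside the KI range, Col4a4 -0.26 ± 0.11 and Col4a5 -0.28 ± 0.16. Col4a1 read 0.49 ± 0.25, Col4a2 0.44 ± 0.26 and nidogen, Nid1, 0.40 ± 0.21. Nid1 was the only member of the 18 without overlap, and 1.43% of all genes lay above WT in this way. The list median was 0.07, and -0.08 without WT 15.

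**Figure D3:**
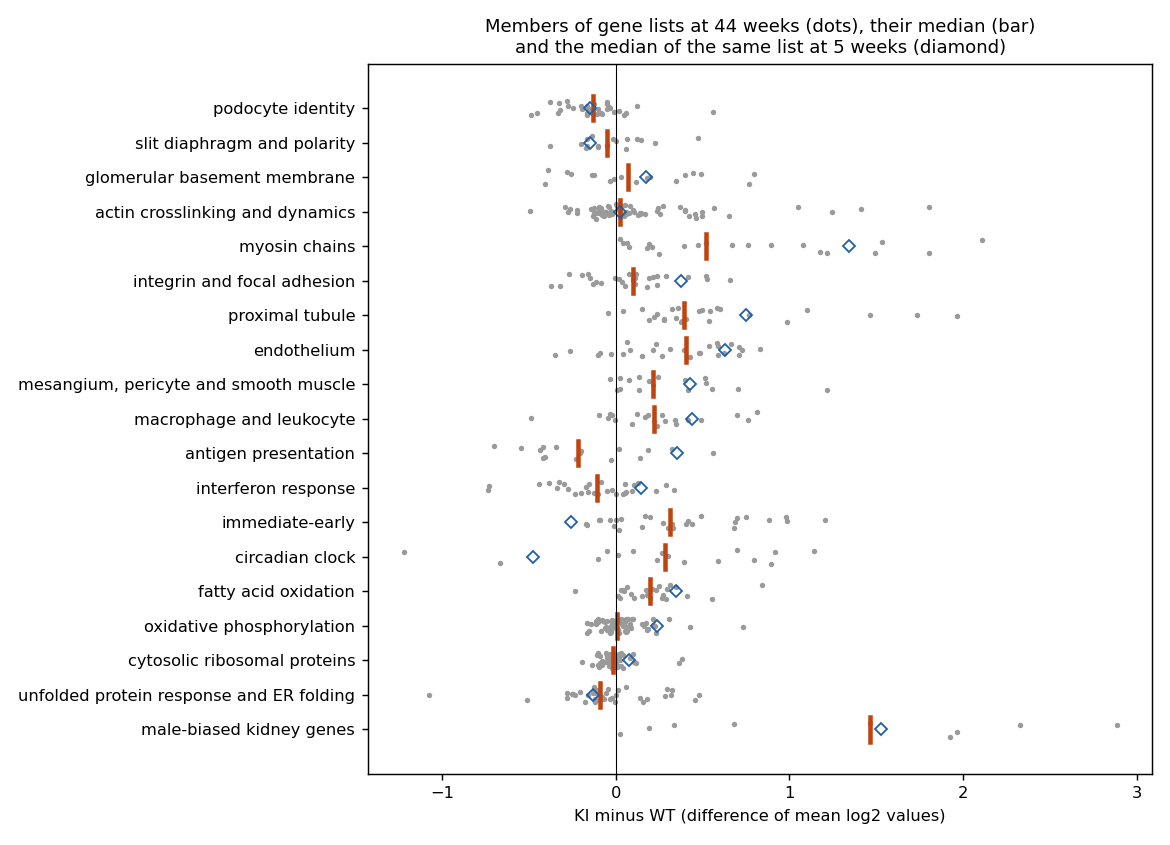
Difference of KI and WT means (log2) for the members of 19 gene lists at 44 weeks (grey dots, 1 per gene tested), with the list median at 44 weeks (orange bar) and at 5 weeks (blue diamond). Myosins, proximal tubule and endothelial genes lie mostly to the right, with larger medians at 5 weeks, and the immediate-early, clock, antigen presentation and interferon lists have medians of opposite sign at 44 and 5 weeks.

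Among actin genes, those with the largest differences also separated WT 15 from the other WT arrays. Actn1, the alpha-actinin closest to Actn4, read 10.97, 9.79, 10.10 and 9.71 in WT and 10.52, 10.90, 11.03 and 10.73 in KI. All 4 KI arrays were above 3 WT arrays, and WT 15 lay inside the KI range; the difference was 0.65 ± 0.24 (adjusted p = 0.69, limma), and both other probe sets of Actn1 read higher in KI as well, by 0.86 and 0.91. With array weights, which gave WT 15 the lowest weight of the 8 arrays (0.37), Actn1 passed (0.97, adjusted p = 0.018), the 1 of 21 alternatives in which it did. It read 0.93 without WT 15 (adjusted p = 0.057), 0.35 with a sex covariate over the 8 arrays (adjusted p = 0.84) and 0.42 with the tubule covariate (adjusted p = 0.83). The 69 actin genes as a list had a median of 0.02, with 40 higher and 29 lower. Dbn1 (drebrin) read 11.29, 7.12, 8.05 and 8.59 in WT and 10.02, 10.89, 10.90 and 10.45 in KI (1.80 ± 0.82). Vil1, the villin of brush borders, ran from 8.22 to 11.28 in WT and from 10.44 to 11.10 in KI (1.25 ± 0.54), and Pls3 read 0.40 ± 0.18.

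All 21 myosin genes tested had a higher mean in KI, with a median of 0.52, 5 of them at an unadjusted p under 0.05 (3.53% of all genes were higher at that p), none past the adjusted threshold and none free of overlap. Myo7a read 11.01, 5.90, 7.26 and 7.94 in WT and 9.55, 10.51, 10.76 and 9.72 in KI (2.11 ± 0.84, adjusted p = 0.73). Myo15b read 11.01, 7.26, 8.22 and 8.35 against 10.39, 10.63, 10.64 and 10.40 (1.80 ± 0.62, adjusted p = 0.69). WT 15 was the highest of all 8 arrays for Myo7a and Myo15b. Myo7b, a motor of the brush border, read 1.49 ± 0.64 and Myo18a 1.08 ± 0.45. Without WT 15 the median of the list was 1.00 and Myo15b passed (2.57, adjusted p = 0.040). With a covariate for the tubule markers the median was 0.14. The list median at 5 weeks was 1.34, where 15 of the 21 had risen; at that age 14.3% of all genes had risen and 7.75% had fallen.

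Of 30 focal adhesion genes tested 20 read higher and 10 lower, with a median of 0.10. Vcl (vinculin), which joins integrin complexes to actin, read 10.71, 10.80, 10.84 and 10.76 in WT and 10.94, 11.20, 11.00 and 10.91 in KI, without overlap (0.24 ± 0.12, adjusted p = 0.80). Tns1 (tensin 1) read 0.52 ± 0.17 (adjusted p = 0.65) and passed without WT 15 (0.72, adjusted p = 0.040).

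Proximal tubule, endothelial and mesangial markers mostly had higher means in KI. The 30 genes of the loop, distal tubule and collecting duct did not share this: 17 read higher and 13 lower, with a median of 0.03, and the mean of that list was 7.67 to 8.44 on the WT arrays and 8.05 to 8.26 on the KI arrays. Of 26 proximal tubule genes, 25 had a higher mean in KI (median 0.39, 3 higher at an unadjusted p under 0.05, against 3.53% of all genes, none passed). The mean of the proximal tubule list was 10.18 on WT 15, 8.69 to 9.31 on the other WT arrays and 9.44 to 10.21 on the KI arrays. The tubular uptake receptor Cubn read 0.77 ± 0.36, the anion transporter Slc22a6 1.10 ± 0.51 and Cyp2e1 1.73 ± 0.81. Of 28 endothelial genes 23 were higher (median 0.40), with Robo4 at 0.67 ± 0.26 and the transcription factor Erg at 0.71 ± 0.30. Cd93, an endothelial and myeloid receptor, ran from 4.59 to 5.78 in WT and from 5.83 to 7.04 in KI (1.38 ± 0.38). Dimmer probe sets of Cd93 read -0.17 and 0.15 with overlapping arrays, so its probe sets disagree. Of 17 mesangial and smooth muscle genes 16 were higher (median 0.21), with smooth muscle actin, Acta2, at 0.52 ± 0.18 and Mcam at 0.55 ± 0.20. Among leukocyte genes the mannose receptor Mrc1 read 0.76 ± 0.36 and Coro1a 0.81 ± 0.42. With the tubule covariate the medians were 0.12 for the proximal tubule, 0.08 for endothelium, 0.09 for mesangium and 0.07 for leukocytes. That covariate is made from the proximal tubule list and the loop, distal tubule and collecting duct list. The smaller proximal tubule median was therefore largely built in. None of these lists had a member that passed. With the tubule covariate in the fit the 3 called genes still passed (Gm38983 at 1.76, Glrx at 1.73 and Igkv1-135 at -1.43).

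Male-biased kidney genes followed the Y-linked RNA. Slc7a13, a male-biased amino acid transporter of the proximal tubule, read 10.49, 4.71, 4.03 and 4.17 on WT 15 to 18 and 10.35, 10.39, 10.42 and 3.80 on KI 31 to 34. The high arrays were the 4 with high Y-linked RNA, from both genotypes. Cyp4a12a ran the same way, from 8.56 to 9.07 on those 4 arrays and from 3.79 to 5.99 on the others. All 9 male-biased genes had a higher mean in KI (median 1.47), and with a sex covariate over the 8 arrays their median was -0.16. Slc22a7, a female-biased anion transporter, read 7.82, 7.89, 7.76 and 8.43 on all 4 WT arrays, WT 15 included, 7.77 on KI 34, and 5.47, 5.43 and 5.67 on KI 31 to 33 (-1.89 ± 0.53, adjusted p = 0.57). Azgp1, zinc-alpha-2-glycoprotein, was high on the 4 arrays high in Y-linked RNA (8.20 to 9.55) and ran from 4.24 to 6.49 on the others. Azgp1 and Cyp4a12a cleared the limit of 4.60 for testing only through the KI arrays of 44 weeks. Over the other 21 arrays their means were 4.53 and 4.20.

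Antigen-processing and interferon genes had medians below that of all genes. Of 16 antigen presentation genes tested, 11 read lower, with a median of -0.22 and 3 below WT without overlap, against 1.31% of all genes; the median at 5 weeks was 0.36. The immunoproteasome subunit Psmb9, which interferon induces, read 8.27, 8.40, 8.73 and 8.99 in WT and 8.06, 7.89, 7.52 and 8.11 in KI (-0.70 ± 0.27, adjusted p = 0.70, limma). All 4 KI arrays were below the WT range. Psmb10 read -0.42 ± 0.21 and Nlrc5, the transactivator of MHC class I genes, -0.54 ± 0.39, also without overlap, and Psmb8 -0.44 ± 0.19. Of 30 interferon response genes 20 read lower, with a median of -0.11. Irgm2, an interferon-inducible GTPase, read 9.43, 9.38, 9.96 and 10.10 against 9.15, 8.86, 8.69 and 9.23 (-0.73 ± 0.24, adjusted p = 0.65), and Irf9, a subunit of the interferon-activated factor ISGF3, -0.34 ± 0.17; both were free of overlap, as was Ifit1, an antiviral RNA-binding protein (-0.44 ± 0.35). Gbp3 read -0.73 ± 0.32 and overlapped. The complement C5a receptor C5ar1 read -0.82 ± 0.36. None of these passed in the main fit. With array weights Psmb9, Psmb10, Irgm2 and Gbp3 did, in a fit that called 267 genes. That fit gave its largest weight among the 8 arrays to WT 18 (2.74). WT 18 was the highest WT array for Psmb9, Psmb10 and Irgm2.

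Immediate-early genes are switched on within minutes of a stimulus, tissue handling included. Of 29 tested, 23 had a higher mean in KI, 5 had an unadjusted p under 0.05, all higher (3.53% of all genes), and 3 lay above WT without overlap (1.43% of all genes); the median was 0.31. Maff read 5.53, 6.10, 6.14 and 5.95 in WT and 6.80, 6.75, 6.73 and 6.44 in KI (0.75 ± 0.24, adjusted p = 0.65). Maff is a small basic leucine zipper protein. Klf2, a flow-responsive factor, read 0.49 ± 0.18 and Ccn1, a matricellular protein, 0.68 ± 0.30, both without overlap. Egr1 read 8.45, 9.92, 10.48 and 9.51 in WT and 10.45, 10.45, 10.63 and 10.75 in KI (0.98 ± 0.32), and Fos 1.21 ± 0.48; WT 15 was the lowest array for both. Without WT 15 the list median was 0.12. At 5 weeks it was -0.26, with Egr1 lower in KI by 0.87 (adjusted p = 0.043). The chemokine Cxcl1 ran from 4.32 to 5.97 in WT and from 6.05 to 6.95 in KI, free of overlap (1.15 ± 0.34, adjusted p = 0.59).

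Clock genes form a feedback loop in which Arntl (BMAL1) with Clock or Npas2 binds E-box sequences, CACGTG, and drives the Per, Cry, Dbp and Tef genes, whose Per and Cry products then repress it, so the activating and repressing arms peak at opposite times of day. This list of 18 genes was drawn up after their values were seen. The E-box was present in the promoter windows of 4 of the 14 tested clock genes that have an entry in the RefSeq promoter table (GRCm38.p6, 250 bases before to 50 after each start), or 28.6%, against 8.09% of all genes there and 7.15% of the 32851 windows; the motif reads the same on both strands. The 60 bases around 1 such E-box are shown for each of the 4, from the gene's own strand, with the motif in capitals, to let a reader see the letters searched for; a match is no evidence of binding. Tef and Ciart hold further copies.
Per1 (chr11:69098756-69098815, plus strand): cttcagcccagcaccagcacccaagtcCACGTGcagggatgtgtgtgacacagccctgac
Tef (chr15:81802519-81802578, plus strand): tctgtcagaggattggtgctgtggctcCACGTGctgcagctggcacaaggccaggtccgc
Ciart (chr3:95882312-95882371, minus strand): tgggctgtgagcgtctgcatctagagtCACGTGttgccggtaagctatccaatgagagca
Cry1 (chr10:85185082-85185141, minus strand): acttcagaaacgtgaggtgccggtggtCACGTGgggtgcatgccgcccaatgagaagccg

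Of the 16 clock genes tested, none passed; 12 read higher in KI, and 5 lay above WT without overlap, against 1.43% of all genes. Per2 read 6.45, 7.03, 6.03 and 6.46 in WT and 7.34, 8.03, 7.44 and 7.73 in KI (1.14 ± 0.58, adjusted p = 0.81, limma). Per3 ran from 6.75 to 7.47 and from 7.84 to 8.54 (0.89 ± 0.58), and Cry2 from 8.03 to 8.87 and from 8.91 to 9.44 (0.80 ± 0.29). Tef (0.39 ± 0.22) and Bhlhe40 (0.59 ± 0.32) were the other genes free of overlap. Dimmer probe sets overlapped for Per2 (0.14), Per3 (-0.04 to 0.58) and Tef (0.25). Per1, whose E-box is shown, read 7.48, 8.66, 8.32 and 8.10 in WT and 8.97, 8.61, 8.66 and 9.12 in KI, with KI 32 just inside the WT range (0.70 ± 0.19, adjusted p = 0.48). Dbp read 0.92 ± 0.62, Ciart 0.30 and Cry1 -0.10, the last 2 also with an E-box shown. Of the activators, Clock read 0.01, and its dimmer probe sets ran from -0.33 to -0.04, all with overlapping arrays. Arntl and Npas2 read lower in KI, also with overlapping arrays. Arntl ran from 7.16 to 8.66 in WT and from 7.08 to 7.90 in KI (-0.67 ± 0.49). Npas2 ran from 7.21 to 8.47 and from 6.20 to 7.21 (-1.22 ± 0.64). Dimmer probe sets overlapped for Npas2 (-0.26) and Arntl (0.05). At 5 weeks the sign was opposite, with Per1 at -0.15, Per2 at -0.49, Per3 at -0.60, Cry2 at -0.72, Tef at -0.56, Dbp at -0.71, Bhlhe40 at -0.88, Arntl at 0.80 and Npas2 at 0.94; of these Bhlhe40 passed there (adjusted p = 0.042), as did Rora among the other clock genes (-0.52, adjusted p = 0.021). The difference between ages did not pass for Cry2 (1.51 ± 0.40, adjusted p = 0.10) or Bhlhe40 (1.46 ± 0.44, adjusted p = 0.11). The labels hold no hour of collection, and the part of the time of day was not tested.

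**Figure D4:**
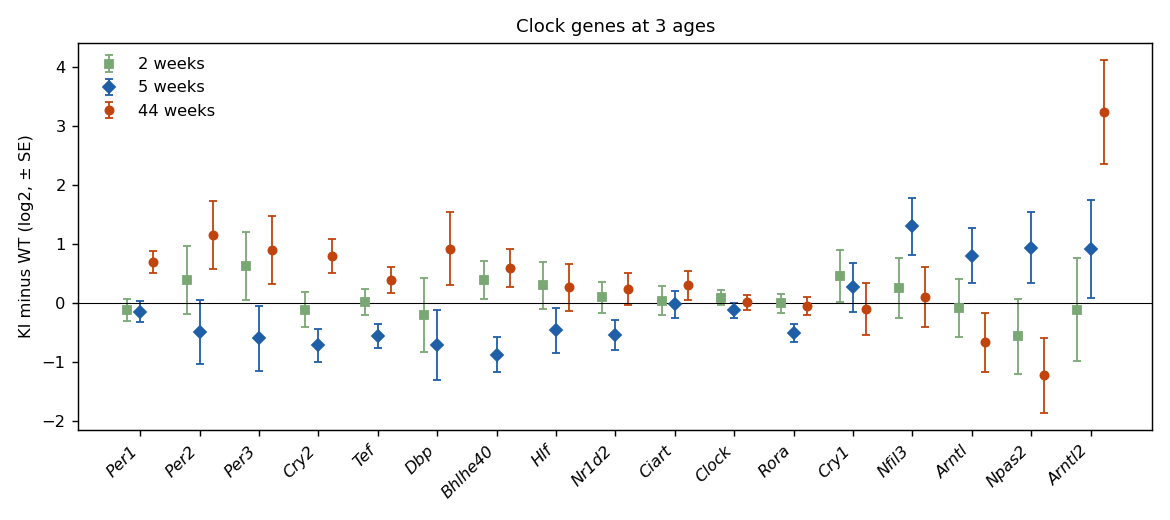
KI minus WT difference (log2, ± SE) of the 16 clock genes tested and of Arntl2 at 2, 5 and 44 weeks. Per2, Per3, Cry2, Tef and Bhlhe40 lie above 0 at 44 weeks and below 0 at 5 weeks, Arntl and Npas2 the reverse, and Arntl2 reads 3.23 ± 0.87 at 44 weeks.

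Arntl2 (BMAL2), a paralogue of Arntl, read 4.23, 3.93, 4.78 and 3.97 in WT and 7.45, 7.55, 7.16 and 7.68 in KI, a difference of 3.23 ± 0.87 or 9.41-fold. Each group was tight and they were far apart, but the SD of this probe set within the groups of the other ages was 1.53 to 1.71, and the pooled fit did not call it (adjusted p = 0.50, limma). Fitted on the 8 arrays of 44 weeks alone it passed (adjusted p = 0.00070), as it did there with a sex covariate (adjusted p = 0.0052). The other probe set of Arntl2, about as bright over the 25 arrays (5.90 against 5.96), read 5.87 in WT and 5.82 in KI with overlapping arrays, so the probe sets disagree and the gene's difference is uncertain.

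Many stress and metabolic lists had medians near that of all genes. Of 70 oxidative phosphorylation genes the median was 0.01, of 64 ribosomal protein genes -0.02, of 41 proteasome genes 0.03 and of 39 autophagy and lysosome genes 0.01, with none passing. Of 39 genes of the unfolded protein response 27 read lower (median -0.09): Herpud1, of endoplasmic reticulum degradation, was higher without overlap (9.98 to 10.13 in WT, 10.37 to 10.72 in KI, 0.48 ± 0.20), while the disulfide isomerase Pdia4 read -1.07 ± 0.47. Of 25 fatty acid oxidation genes 24 read higher (median 0.19), led by the nuclear receptor Ppara (0.84 ± 0.30), and that median was 0.09 with the tubule covariate. Gstk1, a mitochondrial glutathione transferase, read 9.37, 9.28, 9.15 and 9.55 in WT and 9.99, 9.59, 9.66 and 10.09 in KI (0.49 ± 0.16, adjusted p = 0.65, limma). It was the 1 member free of overlap among 40 glutathione and antioxidant genes (median 0.05). Of all genes, 1.43% lay above WT without overlap.

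The lists of disease progression had no member that passed. Of 42 genes of fibrosis and interstitial matrix the median was 0.03 and 1 had an unadjusted p under 0.05, Acta2; of 32 TGF-beta and BMP genes the median was 0.02, of 25 injury genes 0.05 and of 17 complement genes 0.09. Among 35 cell cycle genes (median 0.11) Ccnd1, cyclin D1, read 9.89, 9.36 and 10.18 on WT 16 to 18, 10.91 on WT 15 and 10.45 to 10.84 in KI (0.59 ± 0.21), and the transcription factor E2f1 read -0.63 ± 0.25. The p53 target Pmaip1 ran from 6.26 to 6.84 in WT and from 6.85 to 7.41 in KI and did not overlap (0.60 ± 0.25).

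Of the 45 genes called without WT 15, 3 are given here. They were picked after their values were seen, and all 3 were also called with array weights. Tnks1bp1, which binds actin capping protein, read 6.41, 6.43 and 6.67 on WT 16 to 18, 7.97 on WT 15 and 7.35 to 8.38 in KI (1.43 ± 0.22 without WT 15, adjusted p = 0.013). Lima1 (EPLIN), which bundles actin, read 12.24 on WT 15, 9.33 to 10.45 on the other WT arrays and 11.46 to 12.36 in KI (2.04 ± 0.39, adjusted p = 0.029). The small GTPase Rab11a, of recycling endosomes, fell by 0.58 ± 0.10 in that fit (adjusted p = 0.023, limma). It read 10.48 to 10.63 on WT 16 to 18 and 9.80 to 10.14 in KI, with WT 15 at 10.01. None of the 3 passed in the fit of all 25 arrays without weights. With a sex covariate over the 8 arrays Tnks1bp1 read 0.70 (adjusted p = 0.79, limma), Lima1 0.84 (adjusted p = 0.81) and Rab11a -0.29 (adjusted p = 0.79). With the tubule covariate they read 0.82, 0.88 and -0.38, and none passed.

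The differences at 44 weeks were also set against those at the younger ages, a test of whether the genotype difference changed with age. The match for sex changed with age as well. Y-linked RNA was high on all WT arrays of 2 weeks but, of the KI arrays, on KI 20 alone. At 5 weeks it was high on WT 6 and 8 and on KI 23, 24 and 26. In these comparisons a change of the allele's effect cannot be told apart from the change in sex match. At 5 weeks 1710 genes were higher and 928 lower in KI, and at 2 weeks none passed. No gene passed for the change of the difference between 5 and 44 weeks (limma; lowest adjusted p 0.094, 2335 genes at an unadjusted p under 0.05) or between 2 and 44 weeks (lowest adjusted p 1.0, 359 genes). With array weights 2041 passed for the first. Mgll, the lipase that splits monoacylglycerols, had the opposite sign at 44 and 5 weeks: it read 10.35, 10.34, 10.27 and 9.31 in WT and 8.81, 8.33, 8.48 and 9.16 in KI at 44 weeks, without overlap (-1.37 ± 0.41), and was higher in KI by 1.57 at 5 weeks (adjusted p = 0.0089). Its difference between ages was -2.94 ± 0.56 (adjusted p = 0.094). Nol3, an inhibitor of apoptosis, went from 0.83 to -0.75 (-1.57 ± 0.31), and the phosphodiesterase Pde4b from -1.19 to 0.09 (1.28 ± 0.24). The mitochondrial protein Higd1a read 0.25 ± 0.09 at 44 weeks after -0.33 at 5 weeks. Against 2 weeks, the tumour suppressor Rassf1 went from -0.59 to 0.39 and the growth factor Pdgfb from -0.51 to 0.42.

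Genes near Actn4 were examined because the modified allele and its flanks are inherited together. Within 20 Mb, 347 genes were tested and 1, Gm38983, passed. The KI arrays lay above WT without overlap for 7 and below for 5, against 1.43% and 1.31% of all genes tested. At an unadjusted p under 0.05, 15 read higher and 14 lower. Together this is 8.36% of the 347, against 7.79% of the 911 genes tested on chromosome 7 and 3.53% higher and 2.84% lower over all genes. The median difference was 0.01. Prodh2, a hydroxyproline dehydrogenase 1.53 Mb from Actn4, was the single gene of the 11968 (0.00836%) whose KI arrays lay on the same side of WT without overlap at all 3 ages. It read 7.63, 6.79, 7.54 and 7.42 in WT and 7.92, 8.53, 7.94 and 7.99 in KI at 44 weeks (0.75 ± 0.24, adjusted p = 0.65), after 1.61 at 5 weeks (adjusted p = 0.00058) and 0.94 at 2 weeks.

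Dmpk, the myotonic dystrophy kinase, 9.80 Mb away, read 4.26, 4.29, 3.91 and 4.33 in WT and 5.54, 5.38, 5.65 and 4.05 in KI. KI 34 alone was at the WT level, and the difference was 0.96 ± 0.24 (adjusted p = 0.48, limma), or 1.33 without that array (adjusted p = 0.00055). Dmpk had risen by 1.42 at 5 weeks (adjusted p = 0.0014) and read 1.10 at 2 weeks. Eml2, a microtubule-binding protein 9.69 Mb away that was added after its values were seen, was lower at all 3 ages (-0.88 at 2 weeks, -0.87 at 5 weeks, -0.52 ± 0.21 at 44 weeks). The laminin receptor Bcam (9.12 Mb) read 8.57, 9.47, 8.84 and 9.22 in WT and 8.43, 8.09, 8.17 and 8.42 in KI (-0.75 ± 0.22), without overlap, and Plekhf1 (9.26 Mb), of endosomes, 0.50 ± 0.15. Distances come from the GRCm38.p6 annotation.

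**Figure D5:**
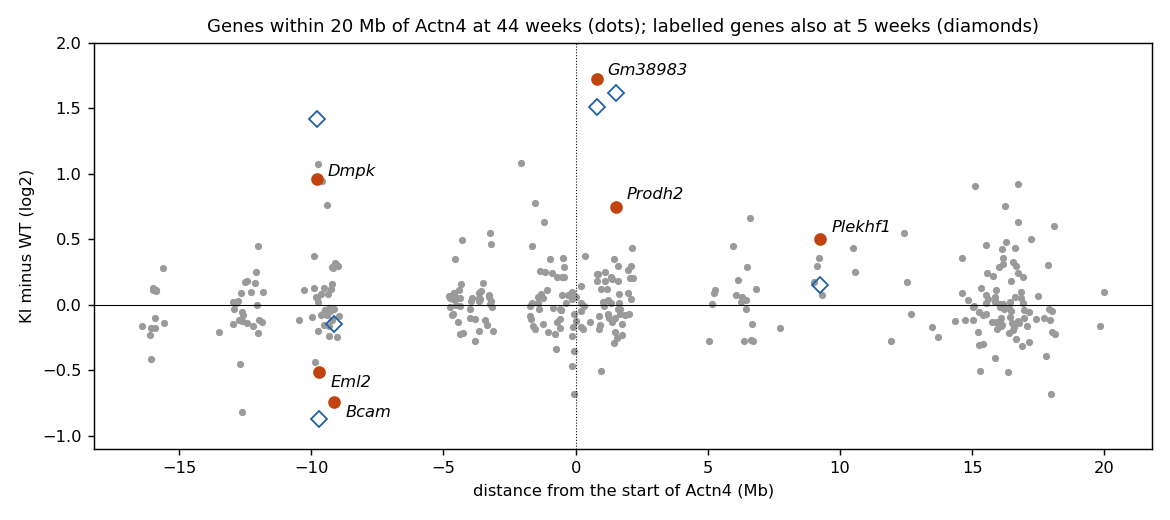
KI minus WT difference (log2) at 44 weeks of the 347 genes tested within 20 Mb of Actn4, by distance from it in Mb. The distance is the gap between the nearest ends of each gene and Actn4, although the axis names the start. Orange dots are the named genes and blue diamonds their differences at 5 weeks. Gm38983 stands highest of them at 1.72, and all the named genes keep at 44 weeks the sign they had at 5 weeks. At 5 weeks the differences of Bcam (-0.15) and Plekhf1 (0.15) were small.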

How the data were processed

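The authors deposited a value table with a log2 value for every probe set and array. Their summarization and normalization are not stated in the labels or headers, and the log base was read from the range of the values, 1.86 to 13.62. Arrays have no read depth, so their number limits precision. Probe sets were named from GEO's platform annotation with symbols updated through RefSeq (GRCm38.p6). Per gene, the probe set with 1 symbol and the highest mean over the 25 arrays was kept, and genes in the dimmest 30% by that mean (under 4.60) were dropped, which left 11968.

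Groups came from titles and source names. The fit, tested on simulated data, used limma 3.58.1 (lmFit, eBayes; R 4.3.3) with 6 group means over all 25 arrays, with 19 residual and 3.05 prior degrees of freedom and a median SE of 0.18 at 44 weeks. Passing means an adjusted p (Benjamini-Hochberg, all genes tested) under 0.05. The genes and the 37 gene lists were chosen with earlier results of these data known; lists are described by counts and medians, with no test. Named genes are Actn1, up to 15 genes each way that passed without overlap between arrays, filled up with the non-overlapping genes of smallest p (predicted genes not named), at most 4 members from every list, those of smallest p, the 4 smallest p each way between ages, and the 5 smallest near Actn4; the text gives a part of these. The named podocyte genes Nphs1, Wt1, Podxl, Synpo and Clic3, the clock list, Nlrc5, Ifit1, Ccn1, Eml2, the antibody genes under the filter with Cr2, Azgp1 and the genes called without WT 15 were added after values were seen. The mean of Ddx3y, Eif2s3y, Kdm5d and Uty split the arrays into high and low in Y-linked RNA.

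Alternatives were quantile normalization, median centring, no filter or a 50% filter, averaging a gene's probe sets, a trended robust prior, array weights, the 8 arrays alone, covariates for sex and for tubule markers, each of the 8 arrays left out in turn, and windows of 5 and 10 Mb. A filter set on the 44-week arrays was added after the data were seen. The tubule covariate was the mean, on each array, of the genes in the proximal tubule list and the loop, distal tubule and collecting duct list.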

Additional observations from a re-analysis of the deposited data

Results flagged for a closer look

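Within each group of 4 arrays, a sample counted as standing apart where its gap to the nearest array, as a share of the group's range, exceeded Dixon's critical value, which chance does in about 1 in 20 groups. Over the 112 genes checked and both groups (224 combinations), 24 stood apart, 12 in WT and 12 in KI.

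WT 15 was apart in 6 of them, with high values of Erg (6.27), Slc7a13 (10.49) and Tnks1bp1 (7.97) and low values of Col4a3 (11.20), Kirrel (8.31) and Eml2 (10.94). Its mean of Y-linked genes was 8.28 against 2.89 to 3.30 on the other WT arrays. WT 17 was low for Lmx1b (4.74), Per3 (6.75), Nol3 (6.52) and Dmpk (3.91). WT 18 was high for Psmb10 (9.49) and low for Mgll (9.31), and WT 16 had the lowest median of all probe sets, 4.93.

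KI 34 was apart in 7, with high values of Clcn4 (9.24), Dbp (10.10) and Slc22a7 (7.77) and low values of Dach1 (9.89), Slc7a13 (3.80), Cyp4a12a (4.87) and Dmpk (4.05). Its mean of Y-linked genes was 3.02 against 7.93 to 8.39 on the other KI arrays, and its 3′ over 5′ actin difference was 1.85. KI 31 was high for Synpo (12.55) and low for Sstr3 (4.71) and Lmx1b (4.37). KI 33 had the lowest value of Gm38983 (5.96) and KI 32 the highest of Prodh2 (8.53).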

How the results depend on the processing

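The number of genes past the threshold at 44 weeks was 3. It became 7 with no filter on dim genes, 0 with the dimmest 50% left out (limma; lowest adjusted p 0.066, 505 genes at an unadjusted p under 0.05), 267 with array weights (178 higher, 89 lower), 1 with a sex covariate over the 25 arrays, 1 with sex and tubule covariates, and 5 with the filter set on the 44-week arrays, which was added after the data were seen. Leaving out each array in turn gave 1 to 45, with 45 without WT 15 and 1 without WT 17 or KI 31. The other settings gave 2 to 4. For the difference between 44 and 5 weeks, array weights gave 2041 calls (507 positive, 1534 negative) in place of 0, and leaving out arrays gave 0 to 2 (2 without WT 17); for that between 44 and 2 weeks leaving out arrays gave 0 to 1 (1 without KI 33). The causes were not tested. The windows of 5 and 10 Mb around Actn4 held 1 called gene, as did that of 20 Mb.

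The sign was opposite for Nphs1 (0.076 with a sex covariate over the 8 arrays; -0.21 to 0.069 when arrays were left out, above 0 without WT 18 or KI 32), for Slc7a13 (-0.31 with that covariate) and for Pde4b (-0.13 with probe sets averaged, -0.081 with array weights). Of 112 genes checked, leaving out WT 15 made the difference over 1.5 times larger for 9 and smaller for 2 (Egr1 and Pde4b); a sex covariate over the 8 arrays made it over 1.5 times smaller for 33 and larger for 1, and the tubule covariate smaller for 27 and larger for 1. Of 2319 recomputed gene values 2231 kept their direction and their side of the threshold, 64 passed only under the alternative and 18 no longer passed. Of 798 list medians 21 moved beyond the spread. No paired analysis was possible because the replicate numbers in the titles are not shared between KI and WT arrays.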
